A study of Mus musculus with 16 samples.

Results

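Livers of wildtype mice that had received an adenovirus for ChREBPα were compared with livers of mice that had received an adenovirus for GFP, all under the HFLMCD diet. The comparison took the libraries by their titles: numbers 9 to 12 are labelled Ad-GFP and numbers 13 to 16 Ad-Chrebpα, which makes 8 of the 16 liver libraries of the series, 4 per group. Both groups were wildtype, were 2 months old when the diet began, ate a diet with 45% of calories from fat, no choline and 0.1% added methionine for 3 weeks, and were dissected 1 week after the virus. The labels give neither sex nor strain, the promoter of the virus or the origin of its insert, and do not say outright that each library is a separate animal. The other 8 libraries are livers of Chrebpα-flox/flox mice on a NASH diet, given a virus for GFP (WT_NASH) or Cre (LKO_NASH), and are used below only to place some levels. Their diet lasted longer, 12 weeks, and differed in content: fat gave 40% of the calories and fructose 20%, and cholesterol was added at 2%.

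ChREBP, encoded by Mlxipl, is a transcription factor that binds DNA together with its partner Mlx when glucose metabolites accumulate in the cell. In liver it is known for raising genes of glycolysis, fructose breakdown and fatty acid synthesis, of which Pklr, the liver pyruvate kinase, is the classic example. The α form is made from the usual first exon, and the shorter and more active β form from another first exon upstream. A diet without choline and low in methionine limits phosphatidylcholine synthesis and the export of triglyceride as lipoprotein, and so produces fatty liver.

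The element that ChREBP recognises joins a pair of E-box-like sites, and the Pklr promoter holds it in its textbook form. It is shown because Pklr was called lower in the livers labelled Ad-Chrebpα, followed by the promoter stretches in which a perfect E-box, CACGTG, was found at a Mlxipl start and at other ChREBP and clock genes described below. All are from RefSeq on GRCm38.p6, 5′ to 3′ on the gene's strand, with the motif in capitals.
Pklr, chr3:89136403-89136589, plus strand: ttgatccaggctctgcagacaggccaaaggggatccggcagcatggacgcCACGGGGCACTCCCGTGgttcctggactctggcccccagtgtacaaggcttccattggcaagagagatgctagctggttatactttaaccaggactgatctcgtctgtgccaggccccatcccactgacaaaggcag
Mlxipl, upstream start, chr5:135089747-135089842, plus strand: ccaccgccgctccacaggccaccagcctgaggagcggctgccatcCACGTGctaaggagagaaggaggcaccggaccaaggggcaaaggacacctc
Khk, chr5:30921443-30921538, plus strand: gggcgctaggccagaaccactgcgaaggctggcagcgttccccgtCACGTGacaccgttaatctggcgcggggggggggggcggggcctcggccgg
Fgf21, chr7:45615491-45615585, minus strand: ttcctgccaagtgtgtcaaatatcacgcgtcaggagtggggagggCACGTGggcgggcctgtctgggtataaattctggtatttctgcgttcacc
Per1, chr11:69098738-69098833, plus strand: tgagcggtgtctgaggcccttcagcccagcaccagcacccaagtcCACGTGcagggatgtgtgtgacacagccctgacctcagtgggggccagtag
The Pklr element began 170 bases before the start, and its pattern, CACGGGNNNNNCCCGTG, which reads the same on both strands, was found in 1 of 32851 promoter windows of 250 bases, or 0.00304%. The pattern was written from the Pklr element itself, so the match at Pklr was fixed in advance. Looser forms of the element were not searched for, so this count does not show how rare ChREBP elements are at other genes. CACGTG, also its own reverse complement, was found in 6.02% of the windows. It began 98 bases before the upstream Mlxipl start, which lies 17001 bases before the other start in the table. It began 71 bases before the start of Khk, 50 before Fgf21 and 166 before Per1. Of 24 established ChREBP targets with a window, 3 held CACGTG, and of 19 clock genes with a window 5 did. Counted the same way, per gene, the share was 6.86% of all 27025 genes with a window. A match is a description of letters and not of binding.

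Mlxipl, the gene the virus was meant to raise, did not differ between the groups beyond their spread. Its FPKM, a level per length of transcript scaled to the library, was 48.5, 46.8, 39.0 and 40.7 in livers 9 to 12 and 46.6, 45.2, 44.7 and 47.8 in livers 13 to 16. The ranges overlapped, and the highest liver of all was an Ad-GFP liver. The edgeR fold change was 1.11, with a 95% interval of 0.987 to 1.24 (adjusted p = 0.241). Reads from the inserted sequence may not be counted as Mlxipl if the insert differs from the mouse gene, which was not tested, so the groups are called here by their labels. Among the 5 partners and relatives listed with it, none was called: Mlx had 24.4, 24.1, 27.9 and 25.7 against 19.5, 22.5, 18.7 and 20.2, without overlap (log2 fold change -0.27, adjusted p = 0.0652). Mlx passed without liver 10 (0.0493) and without liver 14 (0.0312).

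The livers held 32131999 to 36163207 expected counts in the Ad-GFP group and 29640300 to 33996245 in the Ad-Chrebpα group (exact permutation test, two-sided, p = 0.2, where the smallest possible is 0.0286). Liver 14 stood apart from its group. On genes called without it, its median position was 0.49, where 0 is the mean of the Ad-GFP livers and 1 the mean of livers 13, 15 and 16, while those livers lay at 0.94 to 1.05 by the same measure. On the second principal component, which held 16.5% of the variance, Ad-GFP liver 10 (24.8) and Ad-Chrebpα liver 15 (19.5) lay apart from the other 6 (-17.8 to 3.07). The edgeR quasi-likelihood test with Benjamini-Hochberg adjustment called 676 genes higher and 434 lower among 13658 tested at an adjusted p below 0.05, a percentage of 8.13 in either direction, 4.95 higher and 3.18 lower. The FPKM of the groups did not overlap for 19.4% of the genes tested, and the median log2 fold change over all genes was -0.01. The number called was 599 without liver 11, 533 without liver 12, 525 without liver 13, 1722 without liver 14, 609 without liver 15 and 400 without liver 16, and 354 genes were called in the fit of 8 livers and without each single liver. Higher calls were 60.9% of all calls on counts but 30.3% on log2(FPKM + 1), where the median of all genes lay at -0.068. Over 10782 genes FPKM ran 0.072 lower (log2) relative to the counts in the Ad-Chrebpα group, and changes below are from the counts.

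**Figure D1:**
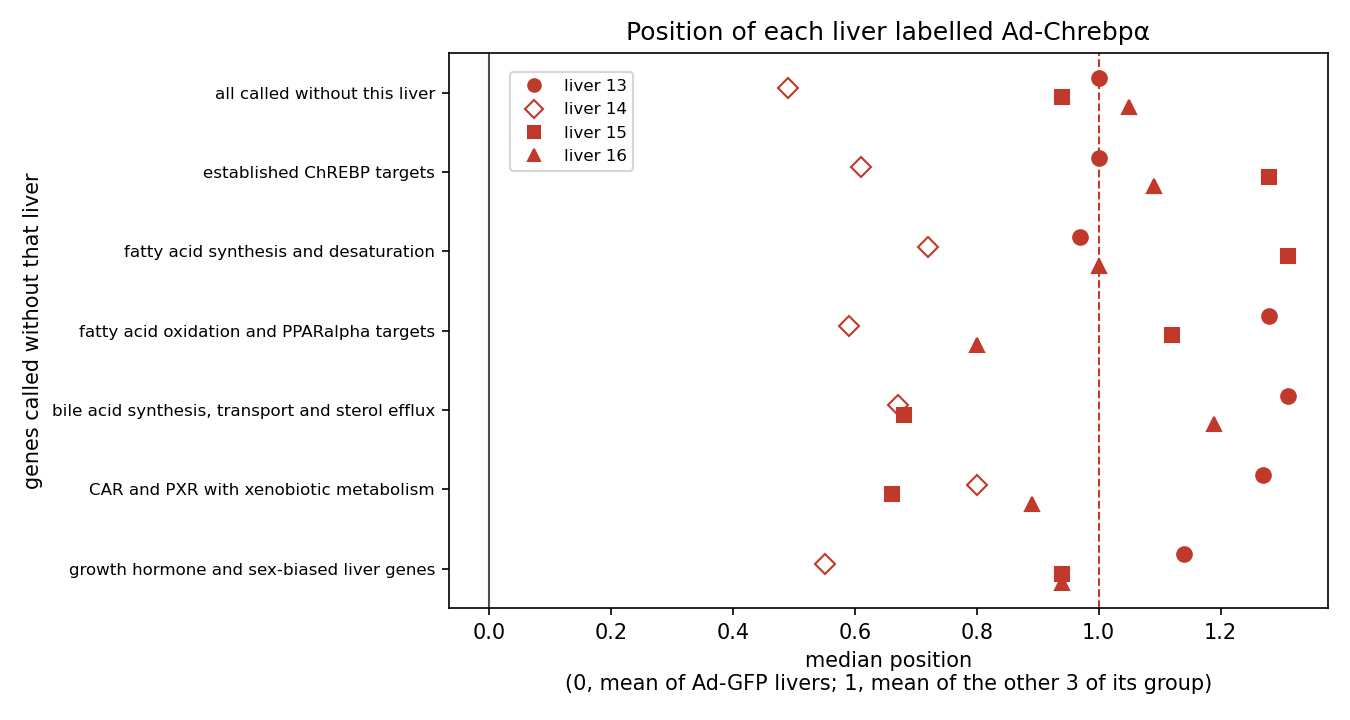
Median position of each liver labelled Ad-Chrebpα (symbols) between the mean of the Ad-GFP livers at 0 and the mean of the other 3 livers of its group at 1, for all genes called without that liver and for the 6 gene lists with at least 5 such genes for every liver. Liver 14 (open diamond) lies at 0.49 over all genes and at 0.61 for the ChREBP targets.

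Established ChREBP targets fell more often than they rose in the livers labelled Ad-Chrebpα. Of 30 tested, 6 were called lower and 2 higher, 26.7% of the list beside 8.13% of all genes, with a median log2 fold change of -0.13. The 6 were Pklr, Tkfc, Fasn, Acaca, Acly and Elovl6. Each is counted again below, in the list of fatty acid synthesis or of glycolysis and fructose breakdown, so these lists are not separate results. The 22 not called included Txnip and Khk. Without single livers the count ran from 5 to 8 lower and from 2 to 3 higher, but it was 0 in both directions in a fit of all 16 libraries, which share 1 estimate of the spread. Pklr had 101, 125, 112 and 104 FPKM in livers 9 to 12 and 75.3, 78.0, 62.7 and 73.3 in livers 13 to 16. Every Ad-GFP liver lay above every Ad-Chrebpα liver (log2 fold change -0.54, SE 0.08, adjusted p = 0.00671). Rgs16, a regulator of G-protein signalling that glucose is known to raise through ChREBP, went the other way, with 12.9, 20.5, 17.0 and 14.6 against 54.0, 33.7, 34.1 and 79.6 (log2 fold change 1.71, SE 0.27, adjusted p = 0.00738). Livers 13 and 16 were the highest. Txnip, an arrestin-family protein that is among the most glucose-responsive of the targets, had 41.4, 68.0, 34.8 and 36.9 against 36.9, 49.97, 72.3 and 60.3, with overlapping groups (0.35, adjusted p = 0.347). Fgf21, the fasting and sugar-induced hepatokine, had 18.8, 19.4, 244 and 14.4 against 6.74, 18.6, 11.7 and 18.2 (adjusted p = 0.132). Liver 11 alone was far above all others, and Txnip and Fgf21 were singled out after their values were seen.

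**Figure D2:**
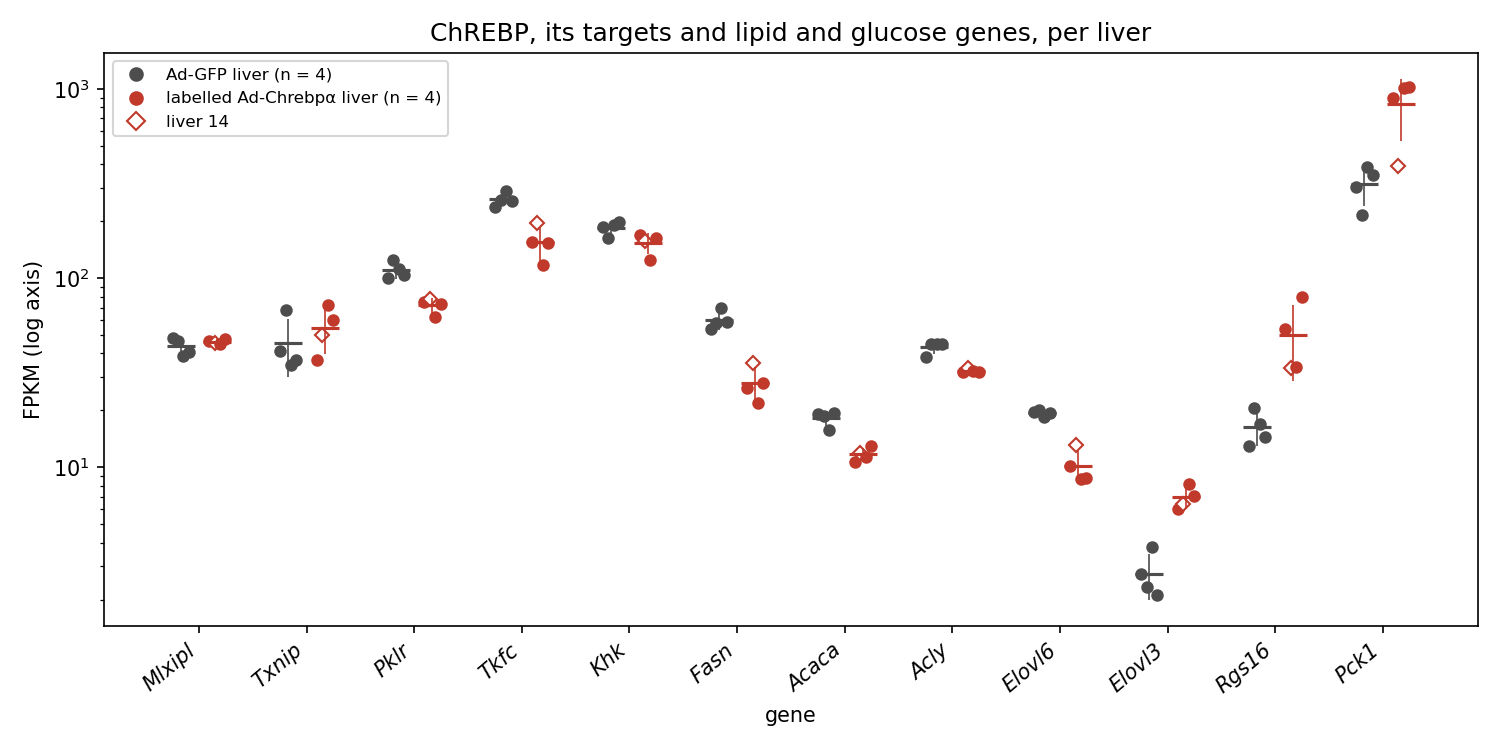
FPKM on a log axis of 12 genes in each Ad-GFP liver (grey, n = 4) and each liver labelled Ad-Chrebpα (red, n = 4, liver 14 as an open diamond), with the mean (horizontal line) and SD (vertical line). Mlxipl overlaps between the groups, Pklr, Fasn, Acaca, Acly and Elovl6 lie lower and Elovl3, Rgs16 and Pck1 higher without overlap.

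Of 27 genes of fatty acid synthesis and desaturation, 4 were called lower and 3 higher (25.9%, median -0.23). The 4 were Fasn, Acaca, Acly and the elongase Elovl6, while another elongase, Elovl3, rose. Fasn, the fatty acid synthase, had 53.9, 57.9, 69.7 and 58.5 FPKM against 26.3, 35.7, 21.9 and 28.0, its lowest Ad-GFP liver above its highest Ad-Chrebpα liver (log2 fold change -1.03, SE 0.14, adjusted p = 0.00371). Acaca, the acetyl-CoA carboxylase that supplies it, had 19.2, 18.8, 15.8 and 19.3 against 10.7, 12.0, 11.3 and 13.0 (-0.57, SE 0.08, adjusted p = 0.00392). Elovl6, which elongates palmitate, had 19.7, 20.2, 18.5 and 19.4 against 10.2, 13.1, 8.67 and 8.81 (-0.86, SE 0.12, adjusted p = 0.00393), and liver 14 was the highest of its group for Fasn and Elovl6. Acly, which makes cytosolic acetyl-CoA from citrate, was lower by a smaller amount (-0.35, SE 0.06, adjusted p = 0.00977). Elovl3, an elongase of saturated and monounsaturated chains, had 2.73, 2.34, 3.78 and 2.11 against 6.04, 6.44, 8.17 and 7.07 (1.41, SE 0.18, adjusted p = 0.00315). All 5 kept their call without each single liver, and all but Elovl3 lost it in the fit of 16 libraries. Without single livers the list's count was 4, 5, 4, 4, 4, 7, 5 and 4 lower and 2, 2, 2, 1, 1, 3, 1 and 2 higher, leaving out livers 9 to 16 in that order.

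Genes of glycolysis and fructose breakdown were called lower in 5 cases of 36 and higher in 1 (16.7%, median -0.03). Tkfc, the triokinase that phosphorylates glyceraldehyde from fructose, had 239, 261, 289 and 256 FPKM against 155, 195, 118 and 153 (log2 fold change -0.68, SE 0.13, adjusted p = 0.0169). The groups did not overlap, liver 14 lay nearest to the Ad-GFP livers, and without liver 16 the adjusted p was 0.0562. Khk, the ketohexokinase at the entry of fructose, had 186, 163, 190 and 198 against 169, 157, 126 and 163, which overlapped (-0.19, adjusted p = 0.298). Slc2a8, a sugar transporter, was the gene called higher (0.37, SE 0.07, adjusted p = 0.014). Lower calls in the glycolysis list numbered 3, 5, 3, 2, 4, 6, 2 and 1 without livers 9 to 16 in that order.

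Among gluconeogenic and fasting genes, Pck1 and Ppp1r3g were higher and Pck2 lower, and liver 14 was the lowest of its group for Pck1 and Ppp1r3g. Pck1, the cytosolic enzyme that commits carbon to gluconeogenesis, had 305, 215, 386 and 352 FPKM in the Ad-GFP livers and 898, 391, 1016 and 1021 in livers 13 to 16. Liver 14 lay just above the highest Ad-GFP liver, and the others were well above it (log2 fold change 1.47, SE 0.29, adjusted p = 0.0181). The adjusted p was 0.0562 without liver 16. Pck2, the mitochondrial form, was lower, with 7.61, 8.17, 7.64 and 7.15 against 4.93, 5.38, 5.58 and 4.78 (-0.49, SE 0.07, adjusted p = 0.00353). Ppp1r3g, a glycogen-targeting subunit of protein phosphatase that is induced by fasting, had 0.24, 0.29, 0.21 and 0.18 against 3.20, 0.54, 3.78 and 2.03 (3.45, SE 0.54, adjusted p = 0.00737), without overlap. G6pc, which releases free glucose, overlapped (-0.09, adjusted p = 0.865). In all, 3 of 26 list members were called higher and 1 lower (15.4%, median 0.14).

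Most fatty acid oxidation genes were not called, and those called were higher. Of 43 genes of oxidation and PPARα targets, 13 were called higher and 0 lower (30.2%, median 0.21), 39 had a positive fold change, and the higher count was 7, 6, 8, 6, 5, 11, 6 and 6 without livers 9 to 16 in turn. The shift was not particular to this list. Of 37 genes of the urea cycle and amino acid breakdown, 33 had a positive fold change (median 0.23), with 5 called higher and 1 lower (16.2%). Of 14 hepatocyte markers, described below, 13 were positive (median 0.26). Cyp4a32, an omega-hydroxylase of a family of near-identical genes whose counts are uncertain, had 9.31, 8.74, 12.0 and 10.3 FPKM against 28.7, 16.3, 26.1 and 28.9 (1.38, SE 0.18, adjusted p = 0.0033). Pex11a, a peroxisome division protein and PPARα target, had 36.9, 39.5, 39.8 and 40.7 against 49.9, 60.0, 66.3 and 51.2 (0.61, SE 0.09, adjusted p = 0.00422). Both were without overlap and kept their calls without each single liver. Eci2, an enoyl-CoA isomerase, and Etfdh, which passes electrons from acyl-CoA dehydrogenases to the respiratory chain, were higher by 0.43 and 0.38 (adjusted p = 0.00558 and 0.00814). Of 38 subunits of oxidative phosphorylation, 0 were called by edgeR (median 0.01).

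Of 31 genes of bile acid and sterol handling, 13 were called higher and 0 lower (41.9%, median 0.30), the largest share of the 28 pathway lists in the fit of 8 livers. The share was larger in the growth hormone list without liver 11, and in the ChREBP targets without liver 13 or 16. For the bile acid list, the higher count was 10, 10, 11, 10, 8, 14, 11 and 7 without livers 9 to 16 in turn, with 2 lower calls without liver 14. In the fit of 16 libraries it was 2. Abcc2, which exports conjugates into bile, had 84.5, 83.1, 79.6 and 75.6 FPKM against 128, 123, 123 and 143 (0.75, SE 0.07, adjusted p = 0.000654). Each liver labelled Ad-Chrebpα exceeded each Ad-GFP liver by a wide margin. Abcg8 and Abcg5, the partners in the transporter that sends cholesterol into bile, rose together: Abcg8 had 21.9, 16.4, 16.4 and 20.0 against 41.4, 29.1, 30.1 and 46.0 (1.04, SE 0.17, adjusted p = 0.00814) and Abcg5 was higher by 0.79 (SE 0.15, adjusted p = 0.0148). Slc27a5, the bile acid CoA ligase, Cyp27a1, which opens the alternative route of synthesis, and Slc10a1, the sinusoidal uptake carrier, were higher by 0.62, 0.44 and 0.44 (adjusted p = 0.00718, 0.00534 and 0.00975). Cyp7a1, the rate-limiting enzyme of the classic route, had 55.3, 44.8, 60.0 and 45.1 against 21.5, 62.8, 29.8 and 12.6 (-0.63, adjusted p = 0.333). Liver 14 was its highest liver and livers 13, 15 and 16 the lowest of all 8, and without liver 14 Cyp7a1 was called lower (-1.20, adjusted p = 0.0184). Cyp7a1 was singled out after its values were seen.

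**Figure D3:**
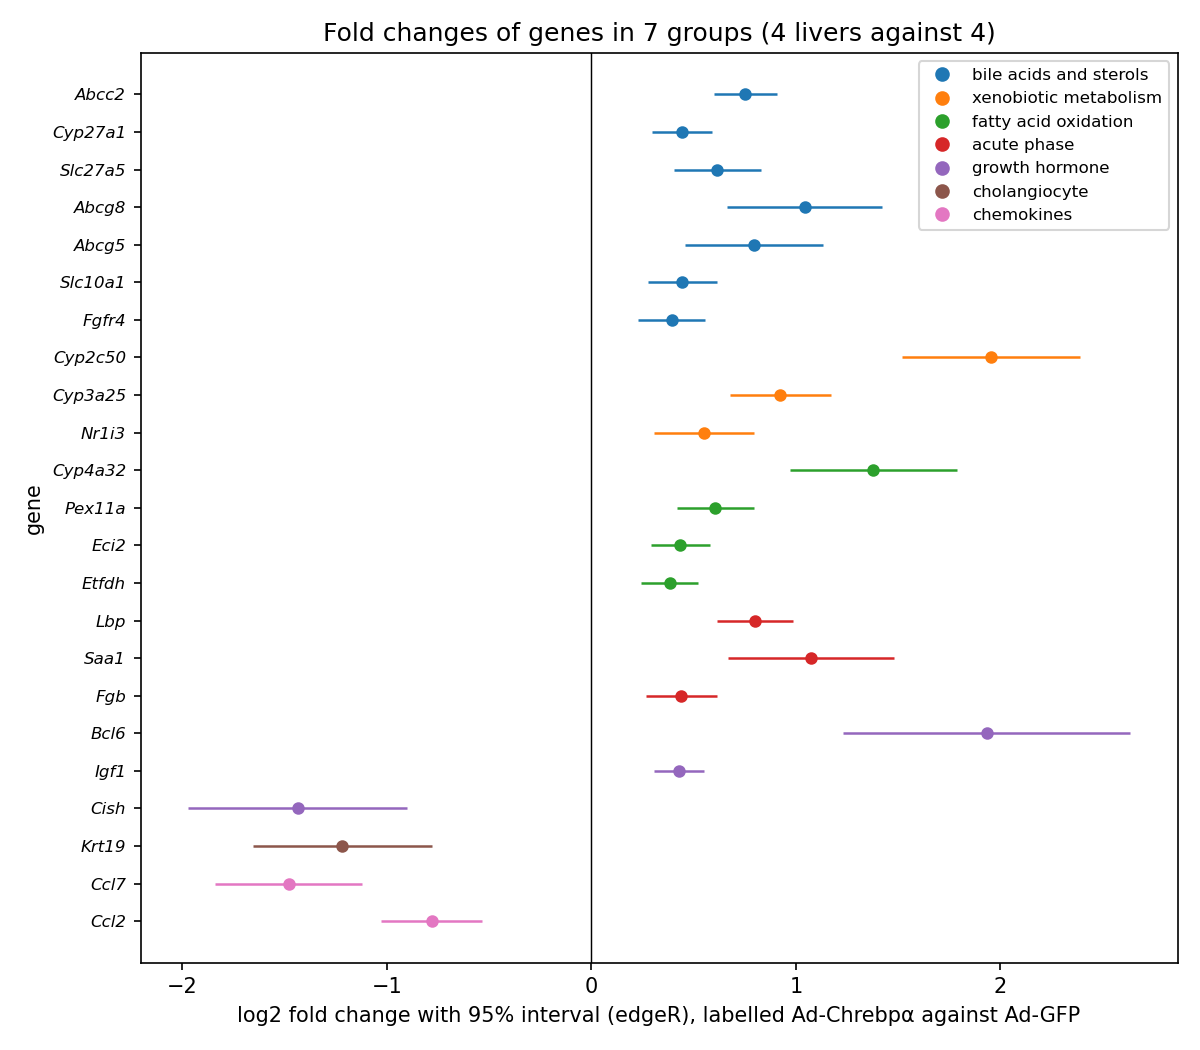
Log2 fold changes with 95% intervals from edgeR (4 livers against 4) for 23 genes in 7 groups, marked by colour. The bile acid, xenobiotic, oxidation and acute phase genes shown lie above 0, and Cish, Krt19, Ccl7 and Ccl2 lie below it.

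Among xenobiotic enzymes, and among genes controlled by growth hormone, many of which differ between male and female livers, more were called higher than lower, and most were not called. Of 46 xenobiotic genes, 11 were called higher and 2 lower (28.3%, median 0.31), with 8, 8, 11, 8, 6, 15, 12 and 8 higher without livers 9 to 16 in turn. The 2 lower were Cyp2c39 (-6.10, adjusted p = 9.54e-08, levels given below) and Sult1e1 (-2.74, SE 0.62, adjusted p = 0.0287). Cyp2c39 is of the same family as Cyp2c50, which rose, and whether shared reads tie these 2 changes was not tested. Cyp2c50, a cytochrome P450 of a family with near-identical members and so uncertain counts, had 58.8, 45.4, 68.6 and 47.8 FPKM against 252, 164, 160 and 239 (1.95, SE 0.20, adjusted p = 0.00112). Cyp3a25 had 107, 122, 150 and 104 against 220, 234, 203 and 215 (0.92, SE 0.11, adjusted p = 0.00217). Both were without overlap, and Nr1i3, the nuclear receptor CAR that controls such enzymes, was higher by 0.55 (SE 0.11, adjusted p = 0.0174). Of 28 growth hormone and sex-biased genes, 9 were called higher and 1 lower (35.7%, median 0.53), with 7, 6, 9, 5, 5, 13, 6 and 5 higher without livers 9 to 16 in turn. The list pools genes higher in male liver with genes higher in female liver, so its counts and median give no direction between the sexes. Bcl6, a repressor that is higher in male liver, had 3.84, 4.12, 9.31 and 3.65 against 23.6, 22.6, 15.0 and 14.8 (1.93, SE 0.32, adjusted p = 0.00839). Cish, a feedback inhibitor induced by STAT5 downstream of growth hormone, was lower, with 23.3, 16.1, 12.0 and 16.6 against 3.90, 8.46, 6.12 and 5.50 (-1.44, SE 0.24, adjusted p = 0.00933). Cish, the 1 lower call of this list, was added outside the naming rule given below, with earlier results known. Igf1, the growth factor that growth hormone induces, was higher by 0.43 (SE 0.06, adjusted p = 0.00308), but by 0.21 without a call on log2(FPKM + 1), by limma (adjusted p = 0.0611). The Y-linked gene Ddx3y was present in all 8 livers, at 11.4 to 15.3 FPKM, and was looked up after the other values were seen.

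Acute phase genes, which hepatocytes secrete in inflammation, were called higher in 9 cases of 31 and lower in 0 (29.0%, median 0.29). Lbp, which binds bacterial lipopolysaccharide, had 40.4, 34.8, 39.6 and 43.5 FPKM against 65.7, 61.0, 66.9 and 69.3 (0.80, SE 0.08, adjusted p = 0.00129). Saa1, a serum amyloid with a close copy in Saa2, had 151, 125, 128 and 157 against 243, 257, 411 and 216 (1.07, SE 0.18, adjusted p = 0.00973), liver 15 being the highest. The chemokines Ccl2 and Ccl7, which attract monocytes, went down instead. Ccl2 had 14.8, 19.6, 16.8 and 18.4 against 8.90, 9.11, 11.6 and 8.90 (-0.78, SE 0.11, adjusted p = 0.00428) and Ccl7 4.71, 5.86, 5.69 and 6.17 against 1.81, 1.58, 2.46 and 1.82 (-1.48, SE 0.16, adjusted p = 0.00151), neither with overlap. Acute phase calls numbered 9, 9, 5, 4, 7, 12, 7 and 4 without livers 9 to 16 in turn, and Lbp, Saa1, Ccl2 and Ccl7 kept theirs in each. In the fit of 16 libraries Saa1 (adjusted p = 0.457) and Ccl2 (adjusted p = 0.137) were not called.

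Clock genes gave 6 higher calls of 23 (26.1%, median 0.27). Without livers 9 to 16 in turn the higher count was 6, 4, 4, 1, 2, 8, 4 and 0, while the list's median stayed at 0.22 to 0.29. Nr1d1, the repressor REV-ERBα, had 26.3, 26.1, 17.0 and 21.4 FPKM against 41.4, 28.6, 40.5 and 45.1 (0.85, SE 0.16, adjusted p = 0.0153, and 0.0513 without liver 16). Per1, a period gene that glucocorticoids also induce, had 10.4, 9.27, 9.06 and 9.64 against 17.4, 9.86, 16.8 and 18.9 (0.79, SE 0.17, adjusted p = 0.026). Liver 14 lay among the Ad-GFP livers for Per1. Leaving out liver 10, 11, 12, 13, 15 or 16 ended the call of Per1, with an adjusted p of up to 0.0774 and a log2 fold change of 0.69 to 0.80. The hour of dissection is not given in the labels, so its part in these differences was not tested.

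**Figure D4:**
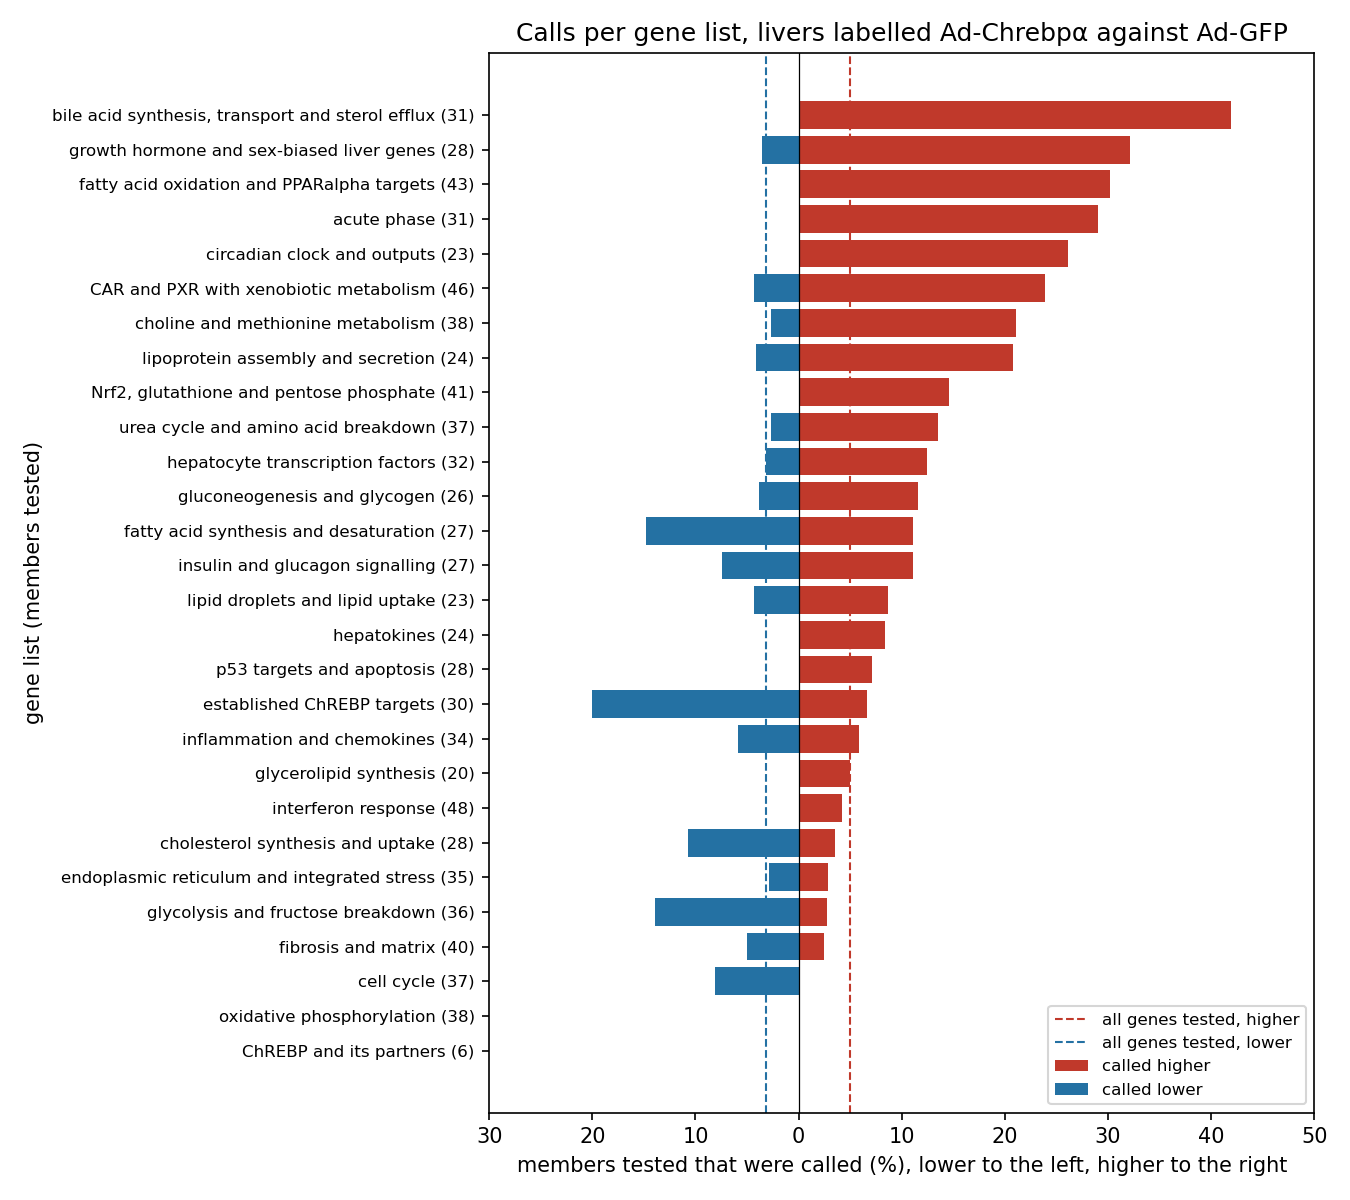
Share of tested members called higher (red, to the right) and lower (blue, to the left) in each of 28 pathway lists, with the share among all 13658 genes as dashed lines (4.95% higher and 3.18% lower). Bile acid genes have the largest share of higher calls and the established ChREBP targets the largest share of lower calls.

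Choline and methionine metabolism, the pathway the diet restricts, had 8 of 38 members called higher and 1 lower (23.7%, median 0.19), among them Chpt1, the last step of phosphatidylcholine synthesis, higher by 0.53 (SE 0.09, adjusted p = 0.0104). Pemt, which makes phosphatidylcholine by methylation, overlapped between the groups (0.15, adjusted p = 0.263). The higher count of this list was 3, 6, 3, 4, 3, 8, 5 and 2 without livers 9 to 16 in turn. Lipoprotein genes gave 5 higher and 1 lower of 24 (25.0%), with Lipc, the hepatic lipase, higher by 0.66 (SE 0.08, adjusted p = 0.00261), and 2 to 6 higher without single livers. Cholesterol synthesis gave 1 higher and 3 lower of 28 (14.3%), interferon response 2 higher of 48 (4.17%), fibrosis and matrix 1 higher and 2 lower of 40 (7.50%) and inflammation 2 and 2 of 34 (11.8%). All 37 cell cycle genes had negative fold changes (median -0.39), but 3 were called lower (8.11%), against 13 without liver 14 and 15 by DESeq2. Endoplasmic reticulum and integrated stress genes had a median of -0.24 with 1 call in each direction of 35, and 13 were called lower on log2(FPKM + 1).

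Among markers of cell types, 5 of bile duct cells were called lower, and 2 of B and plasma cells higher, in the livers labelled Ad-Chrebpα. Fewer cells of a type and less RNA per cell cannot be told apart in whole liver. Of 14 hepatocyte markers 3 were called higher and 0 lower (21.4%, median 0.26), and 13 had a positive fold change. Their summed FPKM overlapped, at 48266 to 58998 in the Ad-GFP livers and 52443 to 59514 in the livers labelled Ad-Chrebpα. Of 10 cholangiocyte markers tested, 5 were called lower and 0 higher (median -0.75), and their sum was 132 to 309 against 108 to 157. Krt19, a keratin of bile duct cells, had 1.91, 2.82, 1.62 and 2.43 FPKM against 1.01, 0.80, 0.81 and 0.95 (-1.22, SE 0.20, adjusted p = 0.00799). Liver 10 had the highest sum, and the other Ad-GFP livers lay at 132 to 215. Without liver 10 the median was -0.54. Liver 10 also had the highest of all 8 sums for macrophage, neutrophil, endothelial and stellate markers. The cholangiocyte count was 6, 4, 3, 4, 2, 6, 2 and 2 without livers 9 to 16 in turn, and its part in the bile acid and matrix results was not tested. Of 6 B and plasma cell markers tested, 2 were called higher and 0 lower. Jchain, the joining chain of secreted antibodies, had 2.64, 3.16, 2.91 and 3.68 against 14.6, 7.62, 18.3 and 9.86 (2.09, SE 0.25, adjusted p = 0.00217). Mzb1, a chaperone of antibody-secreting cells, overlapped (1.29, adjusted p = 0.0497) and was not called on leaving out any single liver other than liver 14. The summed markers were 6.17 to 8.40 FPKM against 11.2 to 23.4, but without Jchain, a sum taken after its values were seen, they overlapped at 3.20 to 5.24 against 3.54 to 5.30. Of 17 macrophage markers 1 was called higher and 0 lower (sum 1474 to 2218 against 1147 to 1708), and of 12 endothelial markers 0 were called by edgeR. Of 4 adipocyte markers found, 3 were below 0.1 FPKM in all 8 livers.

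A small set of genes was near absent in 1 of the 2 groups. The 23 called genes with at least a 4-fold difference and a mean of at least 1 FPKM in the higher group were a wider set. Some of them, such as Jchain, were present in both groups. Among the 23, the Ad-GFP livers lay outside the range of the 12 other livers of the series for 15, the Ad-Chrebpα livers did for 2 and neither did for 6. Among 881 called genes under 2-fold these counts were 377, 94 and 410. A gene with the Ad-GFP livers apart need not have the 12 others alike. For Mup7, Mup12, Cyp2c29 and Hba-a2 the Ad-Chrebpα livers lay between the Ad-GFP and the NASH livers, overlapping neither. Mup7, for example, had 19.7 to 130 FPKM in the Ad-GFP, 150 to 524 in the Ad-Chrebpα and 1503 to 10223 in the NASH livers. Corin, a serine protease best known from heart, had 7.34, 6.91, 6.58 and 7.22 FPKM in livers 9 to 12 and 0.07, 0.04, 0.03 and 0.02 in livers 13 to 16 (log2 fold change -7.45, SE 0.18, adjusted p = 1.23e-08). In the 8 NASH livers it was 0.01 to 0.14. Sectm1b, a secreted and transmembrane protein with a close relative in Sectm1a, had 8.58, 10.4, 10.1 and 9.86 against 0.11, 0.10, 0.10 and 0.09 (-6.52, SE 0.12, adjusted p = 2.36e-09), and at most 0.03 in the NASH livers. Cyp2c39, a P450 with near-identical relatives, had 156, 115, 152 and 156 against 1.74, 1.97, 1.58 and 2.78 (-6.10, SE 0.19, adjusted p = 9.54e-08), and 0.42 to 3.52 in the NASH livers. All 12 other livers of the series were thus low for these 3 genes. Eno1b, the largest fall among the named genes, was not uniform within the Ad-GFP group. It had 184, 80.1, 0.37 and 86.0 against 0.14, 0, 0.30 and 0 (-9.58, SE 1.67, adjusted p = 0.0108), and 0 to 0.56 in the NASH livers. Ad-GFP liver 11 thus lay within the range of the NASH livers for Eno1b. Reads shared with its relative Eno1 would make the counts of Eno1b uncertain, which was not tested. H2bc11, a histone H2B gene, was 1 of the 2 for which the Ad-Chrebpα livers stood apart, with 0.19, 0, 0 and 0.17 against 2.00, 4.87, 3.16 and 3.96 (5.44, SE 0.57, adjusted p = 0.00129) and 0 to 0.39 in the NASH livers, and Jchain was the other.

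Camk2b, a calcium and calmodulin-dependent kinase subunit, was near absent in the Ad-GFP livers alone, with 0.02, 0.02, 0.04 and 0.06 FPKM in the Ad-GFP livers, 3.67, 3.38, 3.35 and 4.09 in livers 13 to 16 (6.66, SE 0.21, adjusted p = 9.54e-08) and 2.01 to 5.23 in the NASH livers. Hba-a2, an α-globin copy whose reads are shared with Hba-a1 and so uncertain, had 2.48, 1.80, 1.93 and 1.90 against 102, 218, 124 and 73.4 (6.06, SE 0.37, adjusted p = 3.66e-05), and 358 to 1101 in the NASH livers. Hba-a1 had 461, 732, 556 and 625 against 235, 458, 310 and 176 in the same livers, lower in the Ad-Chrebpα group (-0.94, SE 0.25, adjusted p = 0.0474). That call was lost on leaving out any single liver other than liver 14, with an adjusted p of up to 0.121. Nnt, a mitochondrial transhydrogenase known to be disrupted in a widely used inbred substrain, was looked up after the values above were seen: it had 50.3, 49.2, 51.8 and 48.7 against 33.1, 36.6, 32.9 and 34.0 (-0.48, SE 0.06, adjusted p = 0.00213), and 8.57 to 16.1 in the NASH livers. Liver 14 was like livers 13, 15 and 16 for Corin, Sectm1b, Cyp2c39 and Camk2b. The mean of the NASH livers, on log2(FPKM + 0.1), lay nearer to the Ad-Chrebpα group for 18 of the 23 genes (78.3%) and for 582 of the 881 under 2-fold (66.1%). The labels give no strain, and a difference between the mice of the groups other than the virus cannot be told apart from it.

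**Figure D5:**
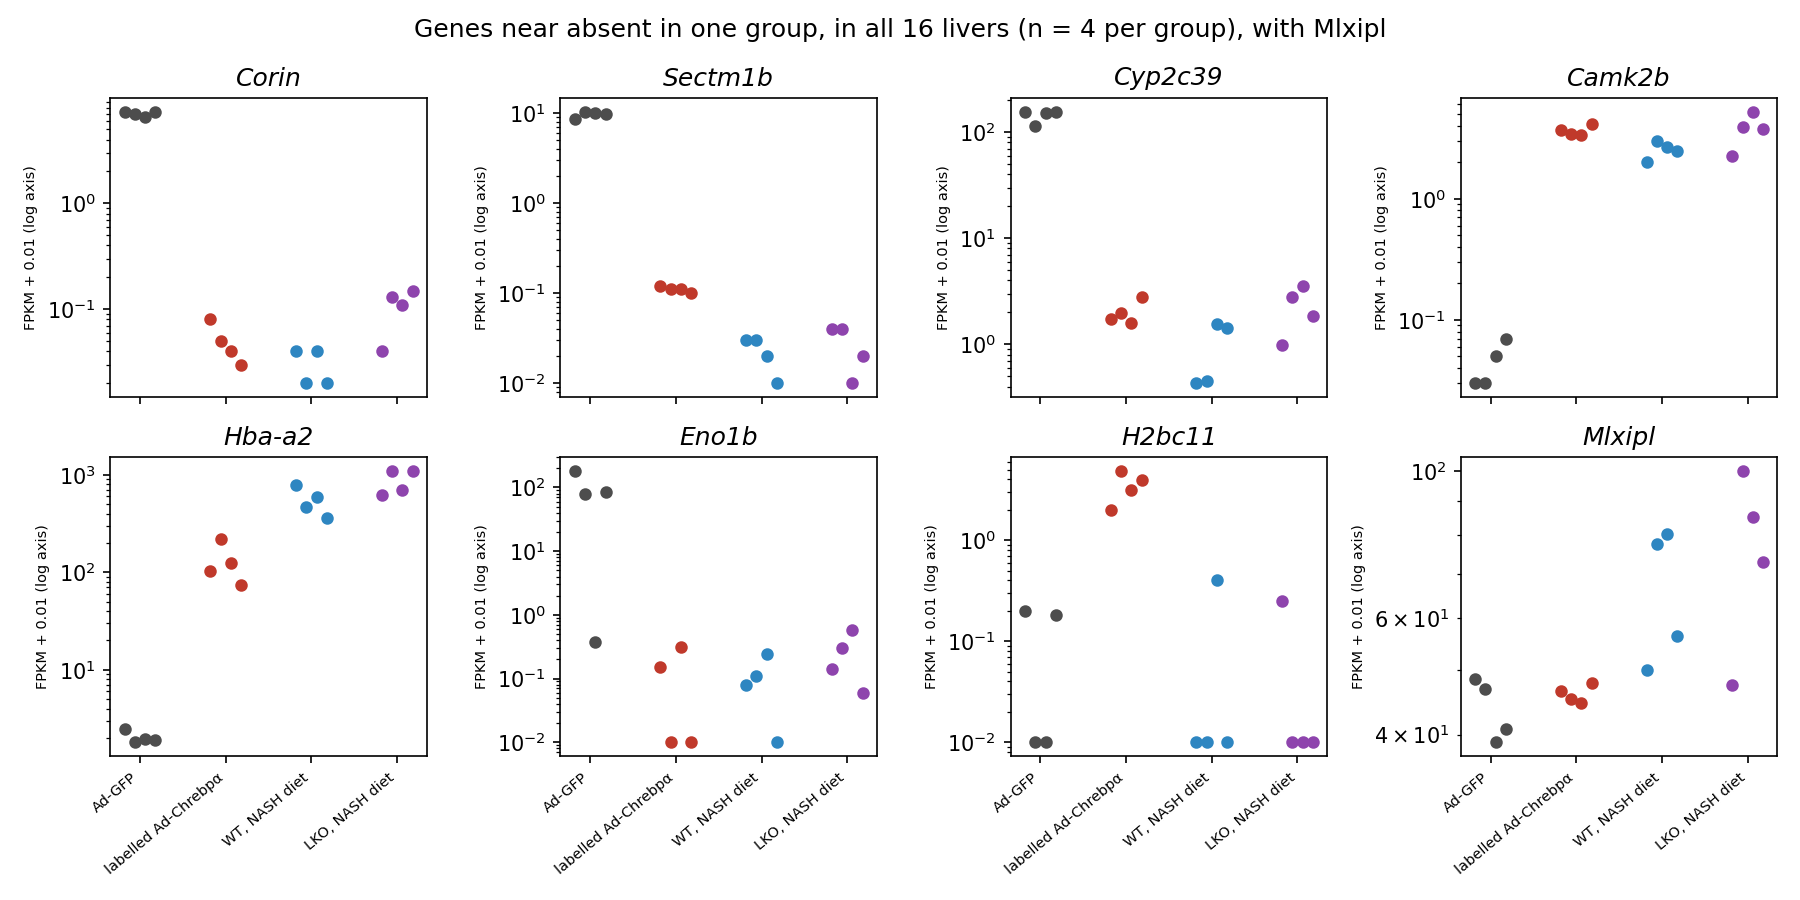
FPKM plus 0.01 on a log axis of 8 genes in all 16 livers, by group (n = 4 each, 1 point per liver). For Corin, Sectm1b, Cyp2c39 and Camk2b the Ad-GFP livers stand apart from the 12 others, and Mlxipl overlaps between the Ad-GFP and Ad-Chrebpα groups.

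Calls were also more frequent on chromosome 11 than elsewhere: 139 of 1126 tested genes were called there (12.3%) against 971 of 12532 on the rest (7.75%). Corin lies on chromosome 5 and Cyp2c39 on chromosome 19, while Sectm1b, Camk2b, Hba-a2 and Fasn lie on chromosome 11. Acaca, Acly, Ccl2, Ccl7, Krt19, Nr1d1, Per1 and Hba-a1, also described above, lie on chromosome 11 too. Pklr and Elovl6 lie on chromosome 3, Tkfc on chromosome 19 and Rgs16 on chromosome 1. How far the chromosome 11 excess bears on the results for these genes was not tested. Gaa, the lysosomal α-glucosidase on chromosome 11, had 19.1, 19.2, 18.2 and 17.7 FPKM against 30.7, 31.7, 34.4 and 30.6 (0.86, SE 0.05, adjusted p = 4.32e-05) and 26.8 to 36.6 in the NASH livers, the range of the livers labelled Ad-Chrebpα lying within that of the NASH livers.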

How the data were processed

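Total RNA of mouse liver was sequenced in 16 libraries, of which 8 enter this comparison, and each library is called a liver here. The deposited tables hold expected counts, which are estimated and not normalised, and FPKM, as their headers name them (per the file headers). HISAT2 was used, per the submitters' processing notes. Not given in the sources used here were the counter, the build and the annotation behind the tables. Unlisted genes were taken as 0. Entries were joined by NCBI gene number (17436 entries, 17410 genes, of which 17371 matched a GRCm38.p6 gene table used for names and chromosomes only). Promoter letters are RefSeq's, and 24 of 30 ChREBP targets and 19 of 23 clock genes had a window.

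Groups came from the titles. Expected counts were rounded and filtered with filterByExpr, scaled by TMM and compared in edgeR (version 4.0.16, under R 4.3.3; quasi-likelihood F test, two-sided, Benjamini-Hochberg over all genes tested, adjusted p below 0.05). The biological coefficient of variation was 0.126. The p-values measure the spread between samples, which may be technical, since the labels do not state separate animals. Chi-square per degree of freedom between libraries of a group was 17.2 to 43.3 for genes reaching 20 counts in a pair. The gene lists (28 of pathways and 11 of markers) and the comparison were chosen with earlier results of these data known. Named genes were ChREBP and its partners, the 10 largest called differences in each direction (mean of at least 1 FPKM, no overlap, no predicted genes), the 6 lowest p in each direction and up to 5 called members per list, of which those describing each group are printed; others are marked where they appear. Alternatives were DESeq2 1.42.0 and its size factors, limma-voom and log2(FPKM) with limma 3.58.1, other filters, a fold change of at least 1.5, a fit of all 16 libraries and leaving out each liver. The test was checked on simulated counts.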

Additional observations from a re-analysis of the deposited data

Results flagged for a closer look

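In 8 of 118 sets of 4 livers (59 named genes in 2 groups, Eno1b not included, 6.78%), a single liver lay far from the other 3 by Dixon's criterion, which chance gives for about 1 in 20. In the Ad-GFP group, liver 11 had 244 FPKM of Fgf21 against 14.4 to 19.4 in the others, 9.31 of Bcl6 against 3.65 to 4.12 and 15.8 of Acaca against 18.8 to 19.3. Liver 9 had 38.1 of Acly against 44.8 to 45.1, and liver 10 had 115 of Cyp2c39 against 152 to 156. In the Ad-Chrebpα group, liver 15 had 11.6 of Ccl2 against 8.90 to 9.11, 213 of Saa2 against 109 to 121 and 15.3 of Ddx3y against 13.7 to 13.9.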

How the results depend on the processing

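The number of calls depended on the processing more than the direction of the named genes did. Against 676 higher and 434 lower (1110 in all), DESeq2 called 1102 higher and 842 lower (1944), the fit of all 16 libraries 236 and 100 (336), and a fold change of at least 1.5 left 237 and 207 (444). On log2(FPKM + 1) limma called 428 and 984, without a filter 360 and 825, and on log2(FPKM + 0.1) 431 and 1001. Leaving out single livers gave 400 to 1722 calls, 263 to 937 higher and 137 to 785 lower. DESeq2's size factors, limma-voom, no filter and a mean FPKM of at least 1 stayed within 1.5 times of each count. Of 50 genes named above and called, Eno1b not included, 22 lost their call in the fit of 16 libraries, 13 at a fold change of at least 1.5 and 6 on leaving out a single liver (Tkfc, Pck1, Nr1d1, Per1, Hba-a1 and Mzb1), and none reversed in these settings. Ppp1r3g and Mzb1 were not called by limma-voom (adjusted p = 0.0521 and 0.0783). G6pc, not called, ran from -0.3175 to 0.0812 without single livers, and was positive without liver 11, 12 or 16. The causes were not tested. No paired analysis was possible because the replicate numbers of the groups, 9 to 12 and 13 to 16, share none. With 4 livers per group small differences can be missed, and genes under 1 FPKM rest on few counts.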
